A study of Homo sapiens with 6 samples.

Results

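The 57 rows described here are 52 regulators of pre-mRNA splicing and 5 rows of genes that lie over some of them on the other strand, out of 59087 rows in the count table. They were chosen by gene symbol: 11 SR proteins (SRSF1 to SRSF11), 2 SR-like proteins, 6 kinases of the CLK and SRPK families, 3 large nuclear speckle proteins, 16 hnRNPs, 3 PTB proteins and 11 further RNA-binding regulators. The 5 opposite-strand rows are GATC over SRSF9, DONSON over SON, AL354733.3 over HNRNPK, COX20 over HNRNPU and EDC3 over CLK3. All 57 had a row, and 53 passed the filter on low counts, with CLK4, PTBP2, MBNL2 and TIA1 left out at between 1 and 12 reads per library, so that 48 regulators and 5 opposite rows were tested.

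The series holds 6 RNA-seq libraries of HEK293T, a human embryonic kidney cell line. There were 2 libraries of wild type cells (WT) and 2 of each of 2 knockout lines of THUMPD2, labelled THUMPD2 KO#1 (KO1 here) and THUMPD2 KO#2 (KO2 here). The purpose given was to find changes of expression and of alternative splicing after loss of THUMPD2, the second line serving to check that results repeat. There was 1 WT line, and no source used here says that the libraries of a group are separate cultures. The p-values therefore weigh differences only against the spread of these libraries, and that spread may be technical.

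SR proteins carry stretches of arginine and serine and mostly promote the use of nearby exons, while hnRNPs such as HNRNPA1 and PTBP1 often repress them. Kinases of the SRPK and CLK families phosphorylate the arginine and serine stretches, which sets where SR proteins lie in the cell and how they act in the spliceosome. SON and SRRM2 build nuclear speckles, the bodies in which many splicing factors are stored.

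Library totals ran from 7414339 to 8391143 reads. THUMPD2 had 1 and 2 reads (WT), 3 and 0 (KO1) and 0 and 1 (KO2), too few to check the genotype labels. Of 10 markers of HEK293T cells 9 had reads, with sums of 2994 to 6229 per library and LHX1 at 0 in all. Of 8 markers of differentiated kidney tubule and podocyte 7 had reads, with sums of 9 to 25 and UMOD at 0. The library kit keeps the strand of each transcript, but the strand setting of the counting is not given in the sources used here. Each symbol below therefore names a row of the table, and nothing is stated about the RNA of the gene itself. Both knockout lines were compared with the same WT libraries, so their results are not independent of each other.

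Each of the 5 pairs named above shares exonic bases on opposite strands, and a stretch of 3 pairs is shown as sequence because within it the 2 rows differ only in the strand read. The windows are the GENCODE v29 transcript sequences on GRCh38, each read 5′ to 3′ on the strand of its own gene. The first lies at chr12:120462022-120462051, in coding sequence of SRSF9 (minus strand) and exonic, non-coding sequence of GATC (plus strand). The second lies at chr1:244841944-244841973, in coding sequence of COX20 (plus strand) and non-coding exon of HNRNPU (minus strand). The third lies at chr15:74635305-74635334, in coding sequence of EDC3 (minus strand) and non-coding exon of CLK3 (plus strand).
SRSF9: ccacactacttctctcctttcaggccctac
GATC: gtagggcctgaaaggagagaagtagtgtgg
HNRNPU: aacatctaaaaatcctaggagcttaaggga
COX20: tcccttaagctcctaggatttttagatgtt
CLK3: cacacgtagtgcctttccacctgtcgccac
EDC3: gtggcgacaggtggaaaggcactacgtgtg
In each pair 1 line is the reverse complement of the other, so a read from this stretch can be given to 1 row of the pair only by its strand. SRSF9 (ENSG00000111786.8, chromosome 12, 120461668 to 120469793) and GATC (ENSG00000257218.5, 120446438 to 120463749) share 1729 exonic bases, 141 of them coding in SRSF9. SON (ENSG00000159140.19, chromosome 21, 33542618 to 33577481, plus strand) and DONSON (ENSG00000159147.17, 33559542 to 33588708, minus strand) share 307 in 4 segments, 289 of them coding in SON. HNRNPK (ENSG00000165119.20, chromosome 9, 83968083 to 83980616, minus strand) and the antisense gene AL354733.3 (ENSG00000235298.1, 83972233 to 83975777, plus strand) share 309 bases in 1 segment. HNRNPU (ENSG00000153187.19, chromosome 1, 244840638 to 244864560) and COX20 (ENSG00000203667.9, 244835322 to 244845057) share 3502 in 3 segments, of which 312 are coding in COX20 and none in HNRNPU. CLK3 (ENSG00000179335.18, chromosome 15, 74598500 to 74645414) and EDC3 (ENSG00000179151.12, 74630558 to 74696292) share 701 in 2 segments, of which 476 are coding in EDC3.

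Most rows of the splicing regulators held few reads, while CLK3, SRSF9 and HNRNPU held means of 4986, 2681 and 1805 per library. The rows opposite to some regulators held far more reads than the regulators' own rows. With at least 100 shared exonic bases, 19 of the 52 regulators had 1 or more opposite rows, which made 26 pairs, and 33 had none. In 12 regulators an opposite row held more reads than the regulator's own row, and in 9 of them more than 10 times as many. The 33 regulators without an opposite row held a median of 34.2 reads per library, from 4.17 to 202. Those 12 held a median of 125 reads in their own rows, and the 7 whose opposite rows all held fewer reads had a median of 356. As reads per kilobase of exon after scaling to library size (RPKM) the medians of these 3 sets were 0.782, 2.98 and 5.49.

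In reads, the largest excess of an opposite row was over the kinase gene SRPK1, whose row held 21 reads per library on average against 447 times as many in LHFPL5. For SRSF1, the founding SR protein, AC015813.5 held 256 times the reads of the SRSF1 row. For SRSF2, another classical SR protein, MFSD11 held 218 times the reads, and for HNRNPK the factor of AL354733.3 was 213. RBM5, a regulator of apoptosis-related splicing, lay under 2 such rows, SEMA3F-AS1 with 337 times and RBM5-AS1 with 170 times its reads. RUFY2 held 99.1 times the reads of HNRNPH3, AC136469.2 held 97.2 times those of HNRNPM, and NDUFB11 held 21.3 times those of RBM10. These factors compare whole rows, of which only a part lies over the regulator. The shared bases made up 1.41% of the exonic bases of RUFY2, 9.72% of LHFPL5 and 16.8% of MFSD11. For AC136469.2 and AL354733.3 they made up 33.6% and 79.2%. Where in a row its reads lie was not tested. Per kilobase of exon the factors were 1116 for SRPK1, 556 for SRSF1, 101 for SRSF2, 2810 for HNRNPK, and 1296 (RBM5-AS1) and 1208 (SEMA3F-AS1) for RBM5, so that HNRNPK and RBM5 stood above SRPK1 on this scale. CLK3 and EDC3 stood the other way, with 4986 reads per library in CLK3 against 37.2 in EDC3, or an RPKM of 31.3 against 0.924. The plot of own against opposite reads places 13 of the 26 pairs above the line of equal reads and 13 below it.

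**Figure D1:**
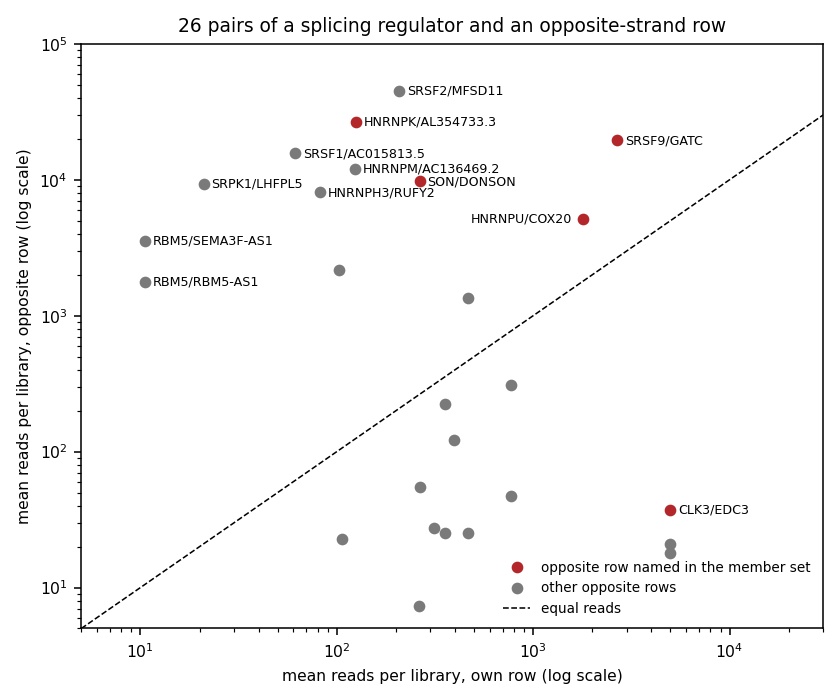
Mean reads per library of a regulator's own row (x axis, log scale) against the row opposite to it (y axis, log scale) for 26 pairs that share at least 100 exonic bases, with the dashed line at equal reads. Pairs named by the choice of members are in red, and SRPK1 with LHFPL5, RBM5 with its 2 opposite rows and HNRNPK with AL354733.3 lie far above the line, while CLK3 with EDC3 lies far below it.

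The row of SRSF9, an SR protein that acts on splice site choice, held 1861 and 2095 reads (WT), 3063 and 3029 (KO1) and 2922 and 3115 (KO2). All 4 knockout libraries lay above both WT libraries. Counts scaled to library size (CPM) did not overlap with WT in 31 of the 53 tested members in KO1 and 35 in KO2, beside 58.7% and 62.5% of all tested rows. SRSF9 rose by 0.70 ± 0.06 in KO1 (log2 fold change ± SE, n = 2 against 2) and by 0.48 ± 0.06 in KO2, with edgeR quasi-likelihood adjusted p-values of 5.81e-11 and 2.13e-07. GATC, which encodes a subunit of the mitochondrial glutamyl-tRNA amidotransferase, held 16062 and 17427 reads (WT), 18985 and 19448 (KO1) and 21929 and 23203 (KO2). All knockout libraries of GATC also lay above WT, while KO1 and KO2 overlapped as CPM, and its rise was 0.28 ± 0.05 (adjusted p = 2.68e-05) and 0.30 ± 0.05 (adjusted p = 8.30e-06). The RPKM of SRSF9 was 92.0 and that of GATC 565.

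The SRSF9 share of the reads of both rows was 10.6% ± 0.246 in WT (mean ± SD, n = 2), 13.7% ± 0.294 in KO1 and 11.8% ± 0.0551 in KO2. By library the 95% Wilson intervals ran from 9.95% to 11.2% in WT and from 13% to 14.4% in KO1, and they cover counting error only. The ratio of SRSF9 to GATC rose by 0.43 ± 0.10 on the log2 scale in KO1 (adjusted p = 0.0146 over 2878 pairs) and stood at 0.18 ± 0.10 in KO2 (adjusted p = 0.230). In KO1 the call of the ratio ended without WT library 1 (0.40), without WT library 2 (0.45) and with limma on the log2 ratios.

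HNRNPU, a scaffold protein that binds RNA and chromatin, and COX20, an assembly factor of mitochondrial cytochrome c oxidase, gave the largest change of ratio in KO2 among the 24 tested member pairs. HNRNPU held 1966 and 2002 reads (WT), 2102 and 1826 (KO1) and 1409 and 1523 (KO2). KO1 overlapped WT, and both KO2 libraries were below all others. HNRNPU was at 0.06 ± 0.07 in KO1 (adjusted p = 0.567) and fell by 0.57 ± 0.07 in KO2 (adjusted p = 2.23e-08). COX20 held 2952 and 3102 reads (WT), 5858 and 4667 (KO1) and 7014 and 7457 (KO2), with no overlap between the 3 groups. COX20 rose 1.83-fold in KO1 (log2 0.87 ± 0.07, adjusted p = 3.21e-13) and 2.18-fold in KO2 (1.12 ± 0.07, adjusted p = 2.91e-16).

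The RPKM of HNRNPU was 10.4 and that of COX20 135. The HNRNPU share of the pair was 39.6% ± 0.531 in WT, 27.3% ± 1.21 in KO1 and 16.8% ± 0.164 in KO2. The log2 ratio of HNRNPU to COX20 fell by 0.81 ± 0.10 in KO1 (adjusted p = 3.41e-04) and by 1.69 ± 0.10 in KO2 (adjusted p = 8.35e-07), and the lines differed from each other by 0.89 ± 0.10 (adjusted p = 2.93e-04). The KO2 value was called under all 11 alternatives run for this pair, and the KO1 value under all but limma on the log2 ratios. The 2 rows lie in a 10 Mb bin of chromosome 1 whose rows were at a median of 0.55 in KO1 and 0.58 in KO2. That bin has 13 rows, and with an offset for such bins of at least 10 rows COX20 was at 0.32 and 0.53 and HNRNPU at −0.49 and −1.16, all called.

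SON, a large protein of nuclear speckles that helps splice weak introns, held 202 and 186 reads (WT), 306 and 263 (KO1) and 303 and 324 (KO2). Every knockout library was above both WT libraries. SON rose by 0.63 ± 0.13 in KO1 (adjusted p = 2.64e-04) and by 0.56 ± 0.13 in KO2 (adjusted p = 8.13e-04), 1.55-fold and 1.47-fold. DONSON, which encodes a replication factor, held 8204 and 8639 reads (WT), 11158 and 10382 (KO1) and 9987 and 10277 (KO2). DONSON rose by 0.43 ± 0.05 in KO1 (adjusted p = 2.87e-08) and was at 0.13 ± 0.05 in KO2 (adjusted p = 0.0535). In 8 of 16 alternatives DONSON was called higher in both lines, among them the bin offset (0.38 in KO1 and 0.26 in KO2), upper-quartile factors, limma-voom and leaving out either KO1 library. The RPKM of SON was 2.57 and that of DONSON 358. SON made up 2.26% ± 0.209 of the reads of both rows in WT, 2.57% ± 0.140 in KO1 and 3.0% ± 0.0790 in KO2. The ratio of SON to DONSON was at 0.20 ± 0.13 in KO1 (adjusted p = 0.363) and rose by 0.42 ± 0.13 in KO2 (adjusted p = 0.0369).

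HNRNPK, a protein with KH domains that binds C-rich RNA, held 91 and 75 reads (WT), 150 and 109 (KO1) and 159 and 164 (KO2). Its knockout libraries were all above WT, with KO1 library 2 nearest to WT. HNRNPK rose by 0.71 ± 0.20 in KO1 (adjusted p = 0.00577) and by 0.82 ± 0.19 in KO2 (adjusted p = 9.25e-04). AL354733.3 held 24575 and 25689 reads (WT), 24996 and 25681 (KO1) and 27931 and 30662 (KO2). It was at 0.09 ± 0.05 (adjusted p = 0.170) and 0.09 ± 0.05 (adjusted p = 0.195), not called in either line, although it was called higher in both lines in 3 of 16 alternatives, limma-voom, a mean of at least 50 reads and without KO1 library 1. HNRNPK took 0.330% ± 0.0550 of the reads of both rows in WT, 0.510% ± 0.123 in KO1 and 0.549% ± 0.0241 in KO2. The ratio stood at 0.63 ± 0.20 in KO1 (adjusted p = 0.0571) and rose by 0.74 ± 0.19 in KO2 (adjusted p = 0.0201). Both rows lie in a bin of 11 rows on chromosome 9 with medians of 0.26 and 0.63, and with that offset HNRNPK was at 0.46 and 0.19, not called, and AL354733.3 was called lower, at −0.16 and −0.54. The KO1 call of HNRNPK also ended without WT library 2 (0.53) or KO1 library 1 (0.51).

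CLK3, a kinase of SR proteins, held 4019 and 4368 reads (WT), 5265 and 5128 (KO1) and 5381 and 5752 (KO2). The knockout libraries were all above WT. CLK3 rose by 0.39 ± 0.06 in KO1 (adjusted p = 1.69e-06) and by 0.27 ± 0.06 in KO2 (adjusted p = 2.76e-04). EDC3, an enhancer of mRNA decapping, held 26 and 20 reads (WT), 36 and 35 (KO1) and 48 and 58 (KO2). EDC3 was at 0.70 ± 0.33 in KO1 (adjusted p = 0.131) and rose by 1.06 ± 0.32 in KO2 (adjusted p = 0.00936). CLK3 made up 99.5% ± 0.132 of the reads of both rows in WT and 99.1% ± 0.0807 in KO2, and the ratio fell by 0.79 ± 0.24 in KO2 (adjusted p = 0.0369). The bin of both rows had medians of 0.32 and 0.28, and with the bin offset CLK3 was not called, at 0.07 in KO1 and −0.0041 in KO2. With that offset EDC3 was at 0.78 in KO2, not called, and its call also ended with DESeq2, without WT library 2 (0.84) and without KO2 library 2 (0.96).

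**Figure D2:**
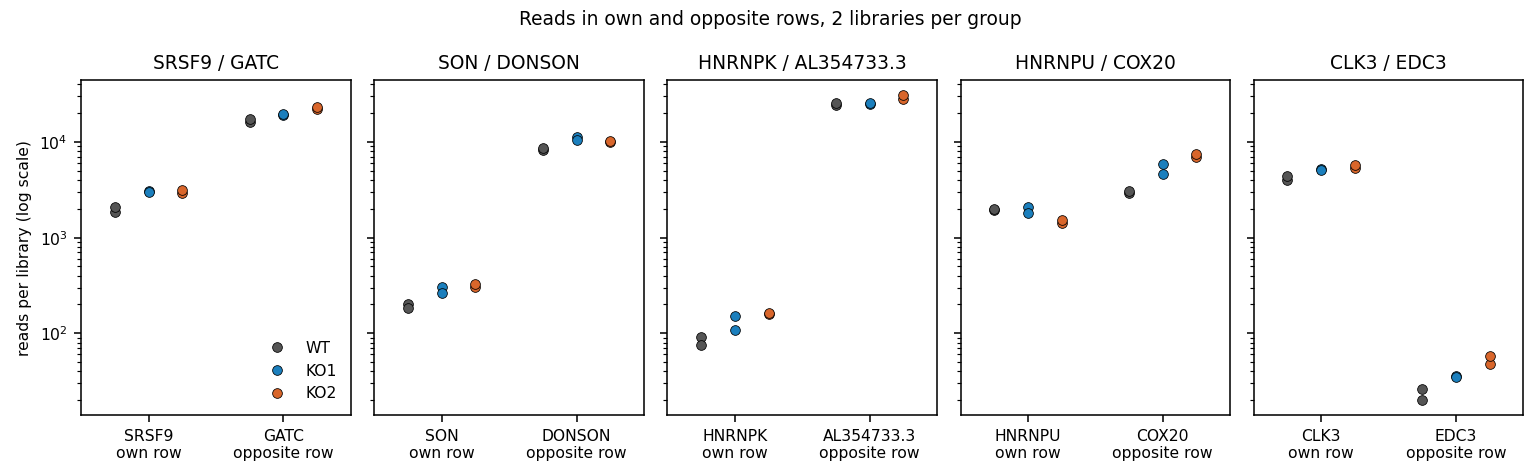
Reads per library (y axis, log scale) of the own row and the opposite row in each of the 5 named pairs, 1 point per library, with WT in grey, KO1 in blue and KO2 in orange. COX20 separates WT, KO1 and KO2 from each other, while HNRNPU is lower in KO2 and overlaps between KO1 and WT.

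**Figure D3:**
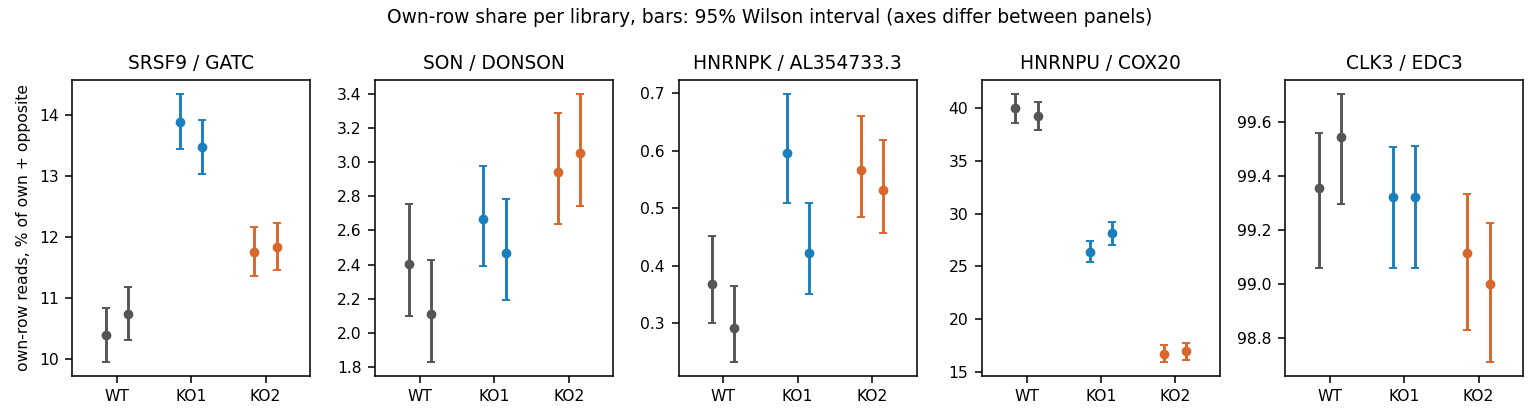
Reads of the own row as a percentage of own plus opposite reads in each library, with bars for the 95% Wilson interval of counting error and a separate y axis for each pair. The mean HNRNPU share is 39.6% in WT, 27.3% in KO1 and 16.8% in KO2, and the SRSF9 share is highest in KO1.

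Over the 24 member pairs with a test of the ratio, 3 were called in KO1, where 13.2% of the 2878 pairs of the whole table were called, and 7 in KO2, where 18.3% were. The 2 called in both lines with 1 sign were HNRNPU with COX20 and CLK3 with the non-coding row AC100835.2, against 6.43% of all pairs. AC100835.2 held 29 and 29 reads (WT), 20 and 13 (KO1) and 13 and 22 (KO2). The ratio of CLK3 to it rose by 1.12 ± 0.30 (adjusted p = 0.0309) and 1.13 ± 0.30 (adjusted p = 0.0210), and it was not called in either line without WT library 1 or without WT library 2, and its KO1 call ended without KO1 library 2 and its KO2 call without KO2 library 1, with values from 0.86 to 1.44 in KO1 and from 0.85 to 1.51 in KO2 over the libraries left out. In KO2 alone, RBM10 rose against NDUFB11 by 0.64 ± 0.19 (adjusted p = 0.0369), and SRPK1 rose against LHFPL5 by 1.00 ± 0.30 (adjusted p = 0.0378). The KO2 calls of the ratios of RBM10, SRPK1, SON to DONSON, HNRNPK to AL354733.3 and CLK3 to EDC3 each ended without KO2 library 1 and without KO2 library 2. All but that of SRPK1 also ended without WT library 2, and those of RBM10, SRPK1 and SON without WT library 1. That of SRPK1 also ended without KO1 library 1 or KO1 library 2. Over the libraries left out, these ratios ran from 0.50 to 0.77 for RBM10, 0.68 to 1.45 for SRPK1, 0.33 to 0.52 for SON, 0.57 to 0.92 for HNRNPK and −1.05 to −0.55 for CLK3. Between KO1 and KO2, 2 pairs were called (11% of all pairs): HNRNPU with COX20, above, and SRSF1 with AC015813.5, higher in KO1 by 1.00 ± 0.21 (adjusted p = 0.0119).

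Further opposite rows changed in 1 line. MFSD11, over SRSF2, held 49285 and 50174 reads (WT), 45603 and 43659 (KO1) and 40405 and 42154 (KO2), and fell by 0.40 ± 0.04 in KO2 (adjusted p = 9.87e-10). SRSF2 itself held 194 and 221 reads (WT), 202 and 180 (KO1) and 223 and 225 (KO2), and was not called. SRSF2 was called higher in KO2 (0.50) with the bin offset, its bin being at −0.52 there. AC015813.5, over SRSF1, held 15953 and 16320 reads (WT), 14784 and 15098 (KO1) and 15304 and 16551 (KO2), and fell by 0.16 ± 0.05 in KO2 (adjusted p = 0.0191). Its raw reads in KO2 overlapped those of WT, while its CPM did not, as in 62.5% of all tested rows. Over RBM5, RBM5-AS1 held 1908 and 2020 reads (WT), 1867 and 1609 (KO1) and 1609 and 1675 (KO2), and it fell by 0.39 ± 0.07 in KO2. SEMA3F-AS1, also over RBM5, held 3497 and 3712 (WT), 3853 and 3236 (KO1) and 3155 and 3784 (KO2), and it fell by 0.19 ± 0.07 in KO2, also with overlapping raw reads but no overlap as CPM. RBM5 itself held 3 to 15 reads. RUFY2, over HNRNPH3, held 8269 and 8345 reads (WT), 8104 and 7629 (KO1) and 7552 and 8639 (KO2), and fell by 0.17 ± 0.06 in KO2, again with overlap in raw reads only. AC136469.2, over HNRNPM, held 10342 and 11719 (WT), 11179 and 11275 (KO1) and 13219 and 14846 (KO2), and rose by 0.21 ± 0.05 in KO2. The HNRNPH3 and HNRNPM rows under them were not called in either line. LHFPL5, over SRPK1, held 8550 and 8956 reads (WT), 9756 and 9441 (KO1) and 9449 and 10114 (KO2), and rose by 0.21 ± 0.05 in KO1. PTPMT1, over CELF1, and NDUFB11, over RBM10, were not called in either line, at 0.08 and −0.11 and at 0.15 and −0.10.

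Across the 53 tested members, 10 were higher and 1 was lower in KO1, where 23.6% of all 14184 tested rows were called (10.4% higher, 13.3% lower). In KO2 10 were higher and 7 lower, where 29% of all rows were called (13.6% higher, 15.4% lower). Without the 5 opposite rows, the 48 tested regulators had 7 higher and 1 lower in KO1 and 7 higher and 7 lower in KO2. The members' median log2 change was 0.22 in KO1 and −0.02 in KO2, beside 0.01 and 0.02 over all tested rows. For the regulators alone it was 0.20 and −0.04. Called higher in both lines were 7 members, SRSF9, CLK3, SON, HNRNPK, PTBP1, COX20 and GATC, where 5.79% of all rows were higher in both. Of these 7, 5 were regulators and 2, COX20 and GATC, were opposite rows. By edgeR no member was lower in both lines (7.72% of all rows), also none at an unadjusted p under 0.05 in each line and none by DESeq2 or limma-voom. SRSF9, SON and COX20 kept both calls in all 16 alternatives. With the bin offset the KO2 split was 12 higher and 4 lower, where 3345 of all 14184 rows were called in either direction. With bins of at least 10 rows the members called in both lines were 6 higher and 2 lower (HNRNPU and AL354733.3). The KO1 split was then 8 and 2, where 2732 of all 14184 rows were called. How many of all rows were higher, lower or called in both lines under these offsets was not counted.

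**Figure D4:**
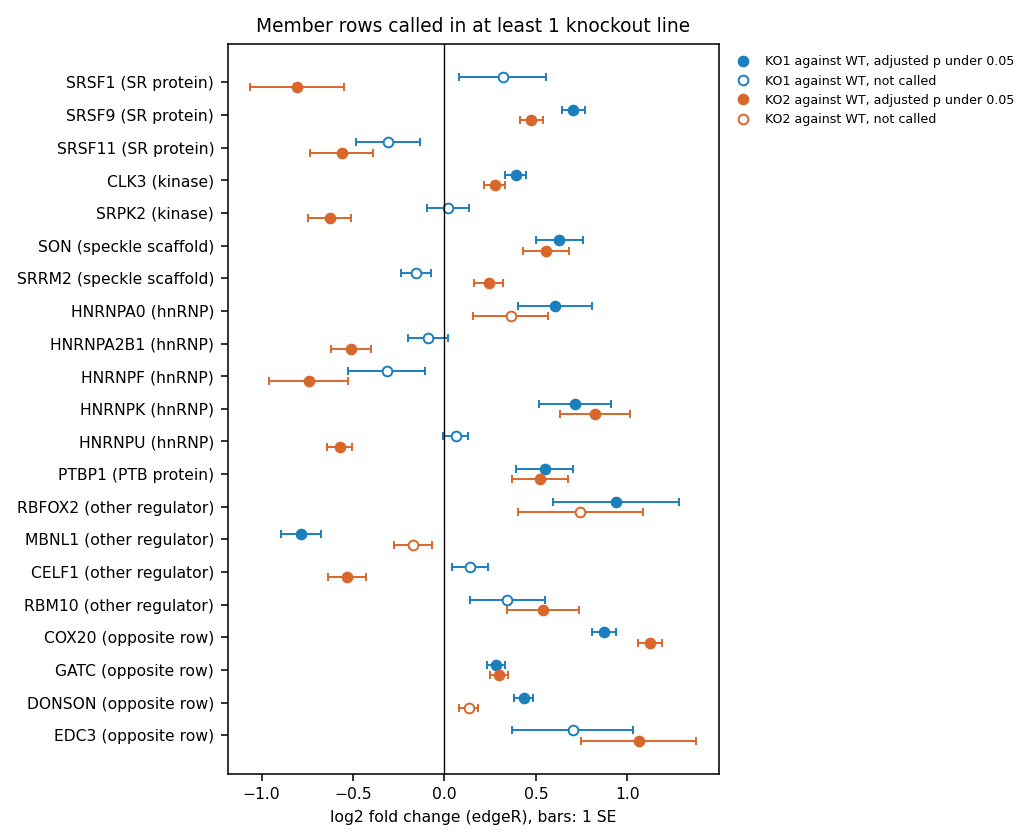
Log2 fold change of each of the 21 members called in at least 1 line (x axis, with bars of 1 SE), KO1 in blue and KO2 in orange, filled where the adjusted p was under 0.05. SRSF9, CLK3, SON, HNRNPK, PTBP1, COX20 and GATC are filled on the right in both lines, and SRSF1, SRPK2, HNRNPU and CELF1 are filled on the left in KO2 with KO1 near or above 0.

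Among the 11 SR proteins 1 was higher in KO1, SRSF9, and in KO2 SRSF9 was higher and SRSF1 and SRSF11 were lower. SRSF1 held 56 and 75 reads (WT), 70 and 84 (KO1) and 43 and 39 (KO2). KO2 lay below WT and KO1 overlapped it, and SRSF1 was at 0.32 ± 0.24 in KO1 and fell by 0.80 ± 0.26 in KO2 (adjusted p = 0.0160). SRSF11, an SR-related protein, held 175 and 171 reads (WT), 144 and 121 (KO1) and 143 and 114 (KO2). It was at −0.31 ± 0.17 in KO1 and fell by 0.56 ± 0.17 in KO2 (adjusted p = 0.0124). The other 8 SR proteins were between −0.25 (SRSF3) and 0.60 (SRSF7) in KO1 and between −0.57 and 0.57, the same 2 rows, in KO2. Of these SRSF4, at 0.18 and 0.29, was called higher in both lines with the bin offset (0.81 and 0.91), its bin on chromosome 1 being at −0.63 and −0.62. The KO2 call of SRSF1 ended with the bin offset (−0.33), without WT library 2 (−0.63) and without KO2 library 2 (−0.69), and that of SRSF11 without WT library 1 (−0.50) and without KO2 library 2 (−0.37), both also with DESeq2. With the bin offset SRSF1 was called higher in KO1 (0.70). The SR-like proteins TRA2A and TRA2B, which bind exonic enhancers, held 11 to 17 and 20 to 38 reads and were not called in either line.

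Of the kinases CLK3 was called higher in both lines and SRPK2 lower in KO2. SRPK2, which phosphorylates SR proteins in the cytoplasm, held 335 and 370 reads (WT), 350 and 326 (KO1) and 223 and 278 (KO2). KO1 overlapped WT and both KO2 libraries lay below it. SRPK2 was at 0.02 ± 0.11 in KO1 and fell by 0.63 ± 0.12 in KO2 (adjusted p = 5.16e-05). Its bin was at −0.06 in KO1 and −0.54 in KO2, and with the bin offset SRPK2 was at −0.09 in KO2, not called. SRPK1 held 10 and 18 reads (WT), 16 and 19 (KO1) and 32 and 31 (KO2), and was not called (0.41 ± 0.45 and 1.03 ± 0.42, the latter with adjusted p = 0.0618). CLK1 was at −0.15 in KO1 and −0.11 in KO2, CLK2 was at 0.16 and −0.04, and CLK4 was not tested.

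Of the 3 speckle proteins SON was called in both lines and SRRM2 in KO2. SRRM2, a component of speckles and of the spliceosome, held 713 and 753 reads (WT), 667 and 580 (KO1) and 913 and 990 (KO2). KO2 lay above WT and KO1 below it. It rose by 0.24 ± 0.08 in KO2 (adjusted p = 0.0187) and was at −0.15 ± 0.08 in KO1. The KO2 call of SRRM2 ended when either WT library or either KO2 library was left out, with values between 0.23 and 0.27. SRRM1 held 16 to 28 reads and was not called, but with the bin offset it was called higher in KO1 (1.08, adjusted p = 0.0483), its bin being at −0.63. With bins of at least 10 rows SRRM1 was also at 1.08 in KO1 but not called (adjusted p = 0.0502).

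Among the 16 hnRNPs 2 were higher in KO1 (HNRNPA0 and HNRNPK), and in KO2 HNRNPK was higher and HNRNPA2B1, HNRNPF and HNRNPU were lower. HNRNPA0, which binds AU-rich RNA, held 72 and 97 reads (WT), 104 and 138 (KO1) and 118 and 120 (KO2). Its rise in KO1 was 0.60 ± 0.20 (adjusted p = 0.0264), and in KO2 it was at 0.36 ± 0.20. That call ended with DESeq2, without WT library 1 (0.45) and without KO1 library 2 (0.34). HNRNPA2B1, an abundant nuclear hnRNP, held 483 and 403 reads (WT), 406 and 384 (KO1) and 324 and 361 (KO2), and fell by 0.51 ± 0.11 in KO2 (adjusted p = 4.04e-04). Both KO2 libraries lay below both WT libraries, and KO1 was at −0.09 ± 0.11. HNRNPF, which binds G-rich RNA, held 98 and 102 reads (WT), 77 and 75 (KO1) and 71 and 60 (KO2). HNRNPF was at −0.32 ± 0.21 in KO1 and fell by 0.74 ± 0.22 in KO2 (adjusted p = 0.00762). The bin of HNRNPA2B1 was at −0.50 in KO2, and with the bin offset (−0.01) or without WT library 1 (−0.32) it was not called. HNRNPF was not called in KO2 without KO2 library 2 (−0.58) or with bins of at least 10 rows (−0.34).

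The 11 hnRNPs not called in either line lay between −0.38 (HNRNPH2) and 0.98 (HNRNPL) in KO1 and between −0.38 (HNRNPH3) and 0.60 (HNRNPL) in KO2. HNRNPL, which binds CA repeats, held 16 and 16 reads (WT), 34 and 26 (KO1) and 36 and 17 (KO2). HNRNPC, the protein that coats long pre-mRNA stretches, held 105 and 80 reads (WT), 123 and 112 (KO1) and 137 and 108 (KO2). With the bin offset HNRNPC was called higher in KO2 (0.79), its bin being at −0.52 there.

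PTBP1, the polypyrimidine tract-binding repressor, held 124 and 160 reads (WT), 217 and 176 (KO1) and 234 and 213 (KO2). All knockout libraries were above WT. It rose by 0.55 ± 0.16 in KO1 (adjusted p = 0.00815) and by 0.52 ± 0.15 in KO2 (adjusted p = 0.00864). PTBP1 was not called without WT library 1 (0.42 in KO1 and 0.40 in KO2). Its KO1 call also ended without KO1 library 1 (0.43), and its KO2 call without KO2 library 1 (0.42) and with DESeq2. PTBP3 held 7 to 21 reads and was not called.

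Of the other regulators RBFOX2 was higher and MBNL1 lower in KO1, and RBM10 was higher and CELF1 lower in KO2. MBNL1, the muscleblind protein sequestered in myotonic dystrophy, held 392 and 454 reads (WT), 230 and 234 (KO1) and 410 and 414 (KO2). Both KO1 libraries were far below all others. MBNL1 fell by 0.78 ± 0.11 in KO1 (adjusted p = 7.03e-07) and was at −0.17 ± 0.10 in KO2. MBNL1-AS1, opposite to MBNL1, held 236 and 253 reads (WT), 164 and 149 (KO1) and 263 and 272 (KO2), and fell by 0.56 ± 0.14 in KO1 (adjusted p = 0.00188). AC026347.1, also opposite, held 33 and 28, 12 and 14, and 33 and 30 reads and fell by 1.15 ± 0.41 in KO1 (adjusted p = 0.0363). The 12 rows of the bin of MBNL1 had medians of −0.67 in KO1 and −0.07 in KO2, and with bins of at least 10 rows MBNL1 was at −0.11 in KO1, not called.

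CELF1, which binds GU-rich RNA and often opposes MBNL1 in muscle, held 455 and 544 reads (WT), 549 and 493 (KO1) and 333 and 425 (KO2). KO2 lay below WT. It was at 0.14 ± 0.10 in KO1 and fell by 0.53 ± 0.10 in KO2 (adjusted p = 7.89e-05), a call kept in all 16 alternatives. RBFOX2, which binds GCAUG, held 16 and 27 reads (WT), 44 and 34 (KO1) and 38 and 41 (KO2). RBFOX2 rose by 0.94 ± 0.34 in KO1 (adjusted p = 0.0430) and was at 0.74 ± 0.34 in KO2. That KO1 call ended in 8 of 15 alternatives, among them without WT library 1 (0.66), KO1 library 1 (0.78) or KO1 library 2 (1.07). RBFOX2 was called higher in KO2 (0.92) and not in KO1 (0.89) with the bin offset. RBM10, a repressor of exon inclusion, held 81 and 81 reads (WT), 109 and 86 (KO1) and 112 and 147 (KO2). RBM10 rose by 0.54 ± 0.20 in KO2 (adjusted p = 0.0378), and was at 0.34 ± 0.20 in KO1. The KO2 call of RBM10 ended in 5 of 16 alternatives, among them without WT library 1, WT library 2 or KO2 library 2, with values from 0.38 to 0.70 over the libraries left out. QKI, TIAL1, RBM5, RBM6 and RBM39 were between −0.31 (TIAL1) and 0.60 (RBM6) in KO1 and between −0.34 (RBM39) and 0.58 (RBM5) in KO2, none called.

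KO1 and KO2 differed from each other in 12 members, 9 higher in KO1 and 3 higher in KO2, where 20.4% of all rows were called (10.1% higher in KO1, 10.3% higher in KO2). SRSF1 was higher in KO1 than in KO2 by 1.12 ± 0.25 (adjusted p = 9.69e-04), CELF1 by 0.67 ± 0.10 (adjusted p = 2.74e-06), SRPK2 by 0.65 ± 0.12 (adjusted p = 5.56e-05) and HNRNPU by 0.64 ± 0.07 (adjusted p = 4.26e-09). MBNL1 was lower in KO1 than in KO2 by a log2 difference of −0.61 ± 0.11 (adjusted p = 5.60e-05), SRRM2 of −0.40 ± 0.08 and COX20 of −0.25 ± 0.06. Each of the pair SRSF9 and GATC was higher than WT in both lines, but SRSF9 differed between the lines by 0.23 ± 0.06 (adjusted p = 0.00716) while GATC differed by −0.02 ± 0.05 (adjusted p = 0.879). The direct test, of the ratio of SRSF9 to GATC between KO1 and KO2, gave 0.25 ± 0.10 and was not called (adjusted p = 0.135).

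The members' changes were set beside the median change of the 10 Mb bin that holds each. For the 47 tested members with a bin median, these medians ran from −0.67 to 0.55 in KO1 and from −0.62 to 0.63 in KO2. SON, PTBP1 and CELF1 lay in bins near 0, at 0.05, −0.05 and −0.12 in KO1 and −0.13, 0.02 and −0.14 in KO2. SRSF9 lay in a bin at 0.31 and 0.29, and with the bin offset it was at 0.39 and 0.19, called in both lines. GATC, in the same bin, was at −0.03 and 0.01 with the offset and not called. HNRNPU stood opposite to its bin in KO2, at −0.57 beside 0.58. The plot of members against their bins shows these distances, and the part of the bins in the members' changes was not tested beyond this offset.

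**Figure D5:**
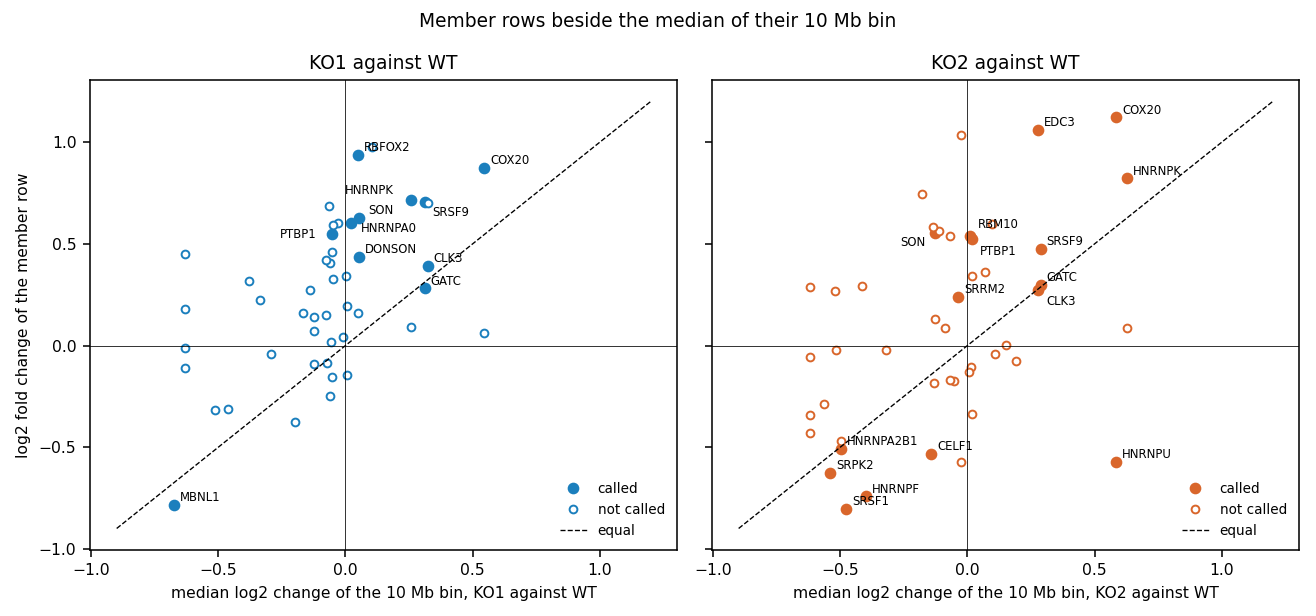
Log2 fold change of 47 tested members (y axis) against the median log2 change of the 10 Mb bin that holds them (x axis), KO1 left and KO2 right, filled where called, with the dashed line at equal values. GATC and CLK3 lie near the line in both lines, SON and PTBP1 lie above bins near 0, and HNRNPU lies far below the line in KO2.

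Other splicing regulators, 83 by list with 68 tested, had 9 higher and 1 lower in KO1 and 13 higher and 8 lower in KO2, with medians of 0.10 and 0.08. Of all tested rows 10.4% were higher and 13.3% lower in KO1, and 13.6% and 15.4% in KO2. Of the listed regulators 6 were higher in both lines, beside 5.79% of all rows, and by edgeR none lower in both, with 1 lower in both at an unadjusted p under 0.05 and none by DESeq2. SCAF1, an SR-related partner of RNA polymerase II, rose by 1.10 ± 0.24 and 0.88 ± 0.24 (reads of 44 and 46, 110 and 73, and 85 and 97 in WT, KO1 and KO2). KHSRP, a KH-domain regulator of splicing and decay, rose by 0.71 ± 0.15 and 0.97 ± 0.15 (129 and 123, 210 and 180, 254 and 290 reads). YBX1, a cold-shock domain protein, rose by 0.65 ± 0.10 and 0.47 ± 0.10, and SFPQ, a paraspeckle protein, by 0.53 ± 0.11 and 0.43 ± 0.11. HNRNPUL1, a relative of HNRNPU, rose by 0.74 ± 0.20 and 0.70 ± 0.20, and SCAF4 by 0.97 ± 0.31 and 0.89 ± 0.31. Without WT library 1 or without KO1 library 1 this count was 4.

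Of 130 rows named as pseudogenes of members 9 were tested. Among these 9, 1 was called in both lines, where 13.5% of all tested rows were (7.72% lower). It was HNRNPCP4, a processed pseudogene of HNRNPC. Its WT libraries gave 40 and 26 reads and all 4 knockout libraries 0, so that KO1 was at least 20.9-fold lower and KO2 at least 22.9-fold lower, from a floor of 3 reads over each knockout group. Reads of near-identical copies can be divided between such rows and their parents, so this row is uncertain.

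In the authors' deposited table, which compares the 4 knockout with the 2 WT libraries, 40 of the 57 members are listed and 6 have a q-value under 0.05. By the authors' deposited table all 6 were higher, COX20 by 1.04, HNRNPK by 0.81, SON by 0.63, SRSF9 by 0.63, CLK3 by 0.37 and GATC by 0.33 on the log2 scale. PTBP1, at 0.57 in the authors' deposited table, had a q-value of 0.0563 there. The share of all rows of that table with a q-value under 0.05 was not counted here. That table rests on the same libraries as the results above. The gene sizes in the authors' deposited table are short for some members, 132 bases for SON, 166 for DONSON and 45 for AL354733.3, where GENCODE v29 gives 13172, 3513 and 390 exonic bases.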

How the data were processed

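RNA-seq of 6 HEK293T libraries in 3 groups of 2 was analysed. Per the labels' protocols, total RNA was extracted with TRNzol and made into libraries with a directional kit that marks the first strand (RF). Trim Galore, STAR 2.7.1a, HTSeq 0.6.1p1, limma and the builds hg38 and GRCh38.p6 are named, without their roles, per the submitters' processing notes. How strand was set in counting, and with which annotation, is not given in the sources used here. The deposited count table holds whole reads for each symbol, not normalized. In a second table the authors deposited FPKM values, log2 fold changes (4 knockout against 2 WT libraries), q-values (adjusted p-values) and a gene size in bases. The FPKM values were not used for any result.

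The 14184 rows that passed filterByExpr were scaled by TMM and tested by quasi-likelihood in edgeR 4.0.16 (R 4.3.3). The fit had a mean for each of 3 groups, all 6 libraries, no covariate, 3 residual and 31.9 prior degrees of freedom, and a biological coefficient of variation of 7.57%. Rows with an adjusted p (Benjamini-Hochberg, over all tested rows) under 0.05 are named as called. Every adjusted p in the text comes from this test unless another tool is named, and the ratio tests were adjusted over 2878 pairs. Rows were placed by symbol on GENCODE v29 (GRCh38), 56239 of 59087, and a pair is 2 rows that share at least 100 exonic bases on opposite strands. For the ratio test, pairs were kept where 1 row was the other's opposite row of largest shared length and both rows passed the filter. Of the 26 member pairs 24 were tested, without CELF1 with PTPMT1 and HNRNPD with AC124016.1. The ratio of own to opposite counts was tested by edgeR with the library as a block and an interaction of row and line. Levels per kilobase use GENCODE exonic bases. Bin medians are over rows of at least 50 mean reads in 10 Mb bins that include the member, and the bin offset subtracts them where a bin has at least 15 such rows. The scripts were tested on simulated data. Chi-square per degree of freedom between the 2 libraries of a group was 2.32 in WT, 3.62 in KO1 and 2.19 in KO2, above counting noise.

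The members and lists were chosen with earlier results of these data known. Values in every library are given for members called in either line, for the 5 opposite rows and their partners and for further opposite rows where these or the member were called. Of the other regulators those called in both lines are named. As alternatives the fits were repeated with DESeq2 1.42.0, limma-voom 3.58.1, RLE or upper-quartile factors, no filter, a mean of at least 50 reads, only the compared libraries, the replicate number as a block, the bin offset and each library left out, and for pairs limma on log2 ratios, 1 or 500 shared bases and at least 50 reads in both rows. Reads carry no molecular identifiers, so intervals cover counting error only.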

Additional observations from a re-analysis of the deposited data

Results flagged for a closer look

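For 12 members the direct test of KO1 against KO2 passed at an adjusted p under 0.05 (edgeR quasi-likelihood), so the effects of the 2 lines, which share their WT libraries, differed from each other. The log2 difference, KO1 minus KO2, was 1.12 for SRSF1, 0.23 for SRSF9, 0.65 for SRPK2 and −0.40 for SRRM2. Among the hnRNPs it was 0.50 for HNRNPA1 (adjusted p = 0.0422), 0.42 for HNRNPA2B1 (adjusted p = 0.00514), 0.53 for HNRNPDL (adjusted p = 0.0204) and 0.64 for HNRNPU. It was −0.61 for MBNL1 and 0.67 for CELF1. Of the opposite rows, COX20 differed by −0.25 (adjusted p = 0.00382) and DONSON by 0.30 (adjusted p = 2.65e-05). HNRNPA1 and HNRNPDL were called against WT in neither line, with 0.33 and 0.25 in KO1 and −0.17 and −0.29 in KO2. HNRNPA1 held 132 and 113 reads (WT), 146 and 145 (KO1) and 120 and 119 (KO2). HNRNPDL held 217 and 153 reads (WT), 244 and 174 (KO1) and 167 and 167 (KO2). The difference of HNRNPA1 was called in 9 of 16 alternatives and was not called without either KO1 library or either KO2 library (0.45 to 0.54 over the libraries left out). Between the lines the call of HNRNPDL ended with DESeq2, without KO1 library 1 (0.32) and without KO2 library 2 (0.49). That of SRSF9 ended without KO2 library 1 (0.21) and without KO2 library 2 (0.23), and that of COX20 without KO1 library 2 (−0.13). With the bin offset the calls of SRPK2 (0.17), HNRNPA2B1 (0.05) and DONSON (0.12) ended, and with bins of at least 10 rows also that of MBNL1 (−0.0082).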

How the results depend on the processing

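The members called numbered 9 to 14 in KO1 over all alternatives (9 to 11 with a library left out), and 6 to 9 in both lines (6 to 8). Between KO1 and KO2 they numbered 8 to 14 (10 to 13), and the other regulators called in both lines 4 to 7 (4 to 6). Over the whole table, 3350 of 14184 rows were called in KO1 in the main fit and 2246 of 14184 with DESeq2. Without a filter these were 3152 of 32017 rows. With a mean of at least 50 reads they were 2754 of 6425, with 35 members tested. The shares of all rows called in both lines or between the lines were not counted for the alternatives. In KO2 the 17 became 11 with DESeq2, and 11 to 20 with a library left out, the 11 being without KO2 library 2. Member pairs with a called ratio in either line numbered 8, and 2 to 7 with a library left out (2 without WT library 2), 1 with limma on log2 ratios, 4 with the replicate block and 5 with at least 500 shared bases, which only 4 of the 8 have. These counts do not say which pairs were called. In KO2, where the called members fell from 17 to 11 with DESeq2, the rows called over the whole table fell from 4118 to 2812 of 14184. The rows called over the whole table in KO2 also fell without KO2 library 2. With the replicate number as a block the member counts were 11 in KO1, 17 in KO2, 7 in both lines and 11 between the lines. The numbers were not taken to pair the libraries, since the deviations of same-numbered libraries correlated at −0.029, −0.021 and −0.021. With the bin offset, GATC in KO1 changed sign to −0.032 and CLK3 in KO2 to −0.0041, and with bins of at least 10 rows, an alternative chosen after seeing the data, to −0.032 and −0.0041. These offsets subtract bin medians of 0.31 for GATC and 0.28 for CLK3. Upper-quartile factors moved the median of all rows to 0.086 and 0.054. With a library left out, the lone library of its group is assumed to vary like the other groups. The 48 tested regulators had a median of 87.1 reads per library, which limits the changes that could be detected.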
